A study of Mus musculus with 10 samples.

Results

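The genes of cholesterol and fatty acid synthesis were followed as transcripts in 10 human prostate tumour xenografts. They are 29 genes taken by symbol from the 58735 genes of the deposited count table: 22 sterol genes and 7 fatty acid enzymes. The sterol genes were described as 7 mevalonate enzymes, 11 later sterol enzymes and 4 regulators and carriers. All 29 symbols were found, and all 29 passed the filter on low counts.

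Cells build cholesterol from acetyl-CoA by way of mevalonate, farnesyl diphosphate, squalene and lanosterol, and fatty acids by way of malonyl-CoA and palmitate. The SREBP transcription factors drive most of these genes. SREBP-2, encoded by SREBF2, acts mainly on sterol genes, and SREBP-1, encoded by SREBF1, acts mainly on fatty acid genes. Sterols hold both back through INSIG proteins in the endoplasmic reticulum. Prostate cancer cells are known for high lipid synthesis, and androgen raises many of these genes in LNCaP cells.

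The IL-15 group held 5 tumours from mice that received sip-T (sipuleucel-T, a cell product of human blood cells) with 1 µg of rhIL-15, recombinant human interleukin-15, injected under the skin. The control group held 5 tumours from mice that received control sip-T and were sham dosed with PBS. All tumours were LNCaP cells, an androgen-sensitive human prostate cancer line, grown under the skin of NOD.Cg-Prkdcscid Il2rgtm1Wjl/SzJ mice, which lack T, B and NK cells of their own. Both groups got 4 intraperitoneal doses of sip-T cells in 100 µl, spaced by 1 week, and tumours were collected on day 7 after the last dose. According to the design text the cells were treated with IL-15 and rhIL-15 was injected, whereas the labels describe injected rhIL-15 beside control sip-T, so the contribution of each cannot be told apart. The labels do not say how many donors gave the cells, nor in so many words that each tumour came from its own mouse, so the p-values cover library-to-library spread alone, which may be technical.

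Libraries held 13560224 to 19324056 counts, and 3 counts equalled 0.155 to 0.221 CPM, for counting error only. The 10 prostate epithelial markers were all detected in every library and summed to 9130 to 14120 scaled CPM (counts per 1e+06 counts after TMM scaling between libraries) in IL-15 tumours and 8088 to 11830 in control tumours. The 12 T and NK cell markers summed to 7.18 to 51.7 scaled CPM in IL-15 tumours and 3.32 to 20.6 in control tumours. The 7 myeloid markers summed to 2.02 to 4.06 scaled CPM in IL-15 tumours and 1.75 to 5.82 in control tumours, and the 5 adipocyte markers to 1.12 to 2.80 and 1.45 to 3.39. The 7 stroma and endothelium markers summed to 53.2 to 89.5 scaled CPM in IL-15 tumours and 32.7 to 107.0 in control tumours. Of all these markers, 0 were at 0 in all libraries, though single libraries missed some. Per library, 9 to 12 of the T and NK cell markers and 4 to 7 of the myeloid markers had a count. So did 4 to 6 of the stroma and endothelium markers and 2 to 4 of the adipocyte markers. On average PLIN1 made up 88.6% of the adipocyte sum, COL1A1 55.1% of the stroma and endothelium sum and KLK3 48.8% of the prostate sum. The genes counted are human and the hosts were mice, so these sums do not measure stroma, vessels, fat or myeloid cells of the host. In bulk tumour RNA, fewer cells of a type and less RNA per cell cannot be told apart.

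Read per length in the deposited FPKM, in which counts are divided by gene length and by a library total, FASN, SCD, FADS2 and ACLY, 4 of the 7 fatty acid enzymes, held the top 4 places among the 29 genes. FASN, the synthase that makes palmitate, averaged 251 FPKM over the 10 tumours and was 11.9 times the median gene of the set. It took between 0.115% and 0.454% of all counts of a library. SCD, the desaturase that makes oleate, followed at 135 FPKM. FASN lay above SCD in 9 of 10 tumours, the exception being IL-15 tumour 3 with 98.6 FPKM of FASN and 105.9 of SCD. Next came FADS2, a desaturase of polyunsaturated fatty acids, at 85.1 FPKM, and ACLY, which supplies cytosolic acetyl-CoA, at 77.5 FPKM. These neighbours were not separated, since FADS2 was the higher in 6 of 10 tumours. ACACA, the carboxylase that makes malonyl-CoA, stood far below at 19.1 FPKM, FADS1 at 8.86 and the elongase gene ELOVL6 at 5.41. The order between genes rests on the deposited gene lengths, from 1280 bases for PMVK to 13008 for ACACA. Whether these lengths match the transcripts expressed here was not tested.

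The transcription factor gene SREBF1, grouped here with the sterol genes although its product acts mainly on fatty acid genes, averaged 67.1 FPKM, and SREBF2 averaged 28.5 FPKM. FDFT1, which encodes squalene synthase and opens the branch to sterols, had the highest mean of the sterol enzymes, at 62.6 FPKM, with EBP, a sterol isomerase, at 59.4 and DHCR7, the reductase of the last step to cholesterol, at 43.6. The EBP mean was raised by control tumour 2, at 186 FPKM, with the other tumours from 26.3 to 60.0. FDFT1 was above EBP in 9 of 10 tumours. INSIG1, the anchor that retains SREBP in the endoplasmic reticulum, measured 44.98 FPKM and could not be ordered against DHCR7, being the higher in 5 of 10 tumours. A wide middle group ran from PMVK at 32.0 to MVK at 10.2 FPKM and held the synthases HMGCS1 at 15.8 and FDPS at 19.2, the isomerase IDI1 at 22.1, the epoxidase SQLE at 15.2 and the cyclase LSS at 24.0. HSD17B7 stood at 5.52 FPKM. STARD4, a carrier of cholesterol between membranes, and CYP51A1, the lanosterol demethylase, were the lowest at 2.05 and 1.96 FPKM. Neither was consistently above the other, with STARD4 higher in 5 of 10 tumours. The annotation holds 3 CYP51A1 pseudogenes (9.10 counts per library in sum, beside 118 counts for the gene), and the handling of shared reads was not given in the sources used here. Likewise 2 HSD17B7 pseudogenes held 127 counts, beside 447 for the gene. CYP51A1 also overlaps AC000120.2 and AC000120.3 on its own strand and CYP51A1-AS1 on the opposite strand. Of these, CYP51A1-AS1 had the most counts, 16.4 per library.

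**Figure D1:**
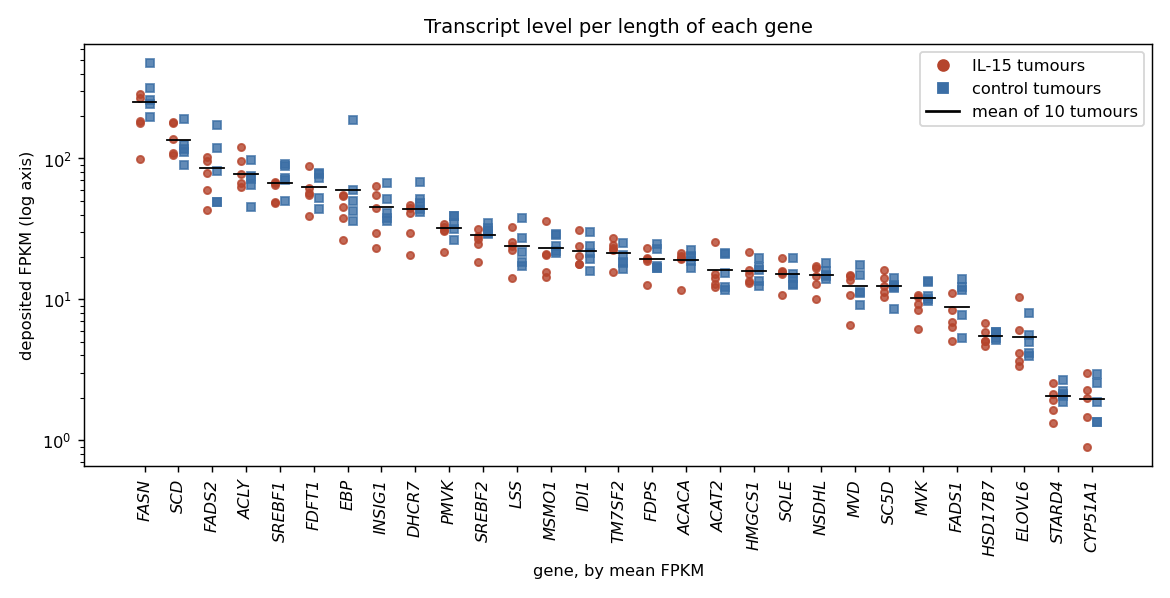
Deposited FPKM of the 29 genes on a log axis, ordered by the mean over 10 tumours (black bars), with IL-15 tumours as circles and control tumours as squares. FASN, at a mean of 251 FPKM, and SCD, at 135 FPKM, lead, STARD4 and CYP51A1 close the order at about 2.05 and 1.96 FPKM, and the single EBP square far above the rest is control tumour 2.

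IL-15 tumours were set against control tumours to ask whether transcripts of lipid synthesis differed with IL-15. In edgeR's quasi-likelihood test with adjustment over all 16913 tested genes, 0 of the 29 genes passed an adjusted p of 0.05 (background 0.0%). DESeq2 called 0 of the 29 as well, with 0.0414% of all genes called. At an unadjusted edgeR p under 0.05, 1 gene of the 29, DHCR7, was lower in IL-15 tumours and 0 were higher, where 3.43% of all genes were lower and 3.03% higher (6.46% in either direction). DESeq2 put 2 of the 29, EBP and DHCR7, under an unadjusted p of 0.05, beside 7.37% of all genes. The IL-15 and control values overlapped for each of the 29 genes. Over all genes, 0.313% were lower and 0.349% higher without overlap.

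The fold changes were small and mostly below 0. Of the 29 genes, 21 had a log2 fold change below 0 and 8 above, beside 51.0% below 0 over all tested genes. The median log2 fold change was -0.09 over the 22 sterol genes (17 below 0) and -0.07 over the 7 fatty acid enzymes (4 below 0), against -0.01 over all genes. For 25 of the 29 genes the 95% interval of the fold change lay within 2-fold either way, as it did for 73.5% of all tested genes. The exceptions were EBP, FASN, FADS1 and FADS2, whose intervals reached beyond a 2-fold lower level in IL-15 tumours. The lean below 0 depended on which tumours were included. Without IL-15 replicate 3 the 29 genes divided into 18 above and 11 below 0, with medians of 0.04 for sterol genes and 0.06 for fatty acid enzymes. Without IL-15 replicate 2 they divided into 4 above and 25 below 0, and without control replicate 2 into 5 above and 24 below. Without control replicate 5, 13 were above and 16 below 0. The split also depended on the scaling, with 14 above and 15 below 0 when library size alone was used and 11 above and 18 below 0 with upper quartile scaling. The median log2 fold change over all genes moved too, to 0.077 with library size alone and 0.038 with upper quartile. Less that all-gene median, the sterol median was -0.080 with TMM, -0.083 with library size alone and -0.084 with upper quartile. For fatty acid enzymes it was -0.068, -0.082 and -0.072 in the same order. Over all genes at an unadjusted p under 0.05, 512 were higher and 580 lower with TMM, 768 and 324 with library size alone, and 629 and 422 with upper quartile.

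**Figure D2:**
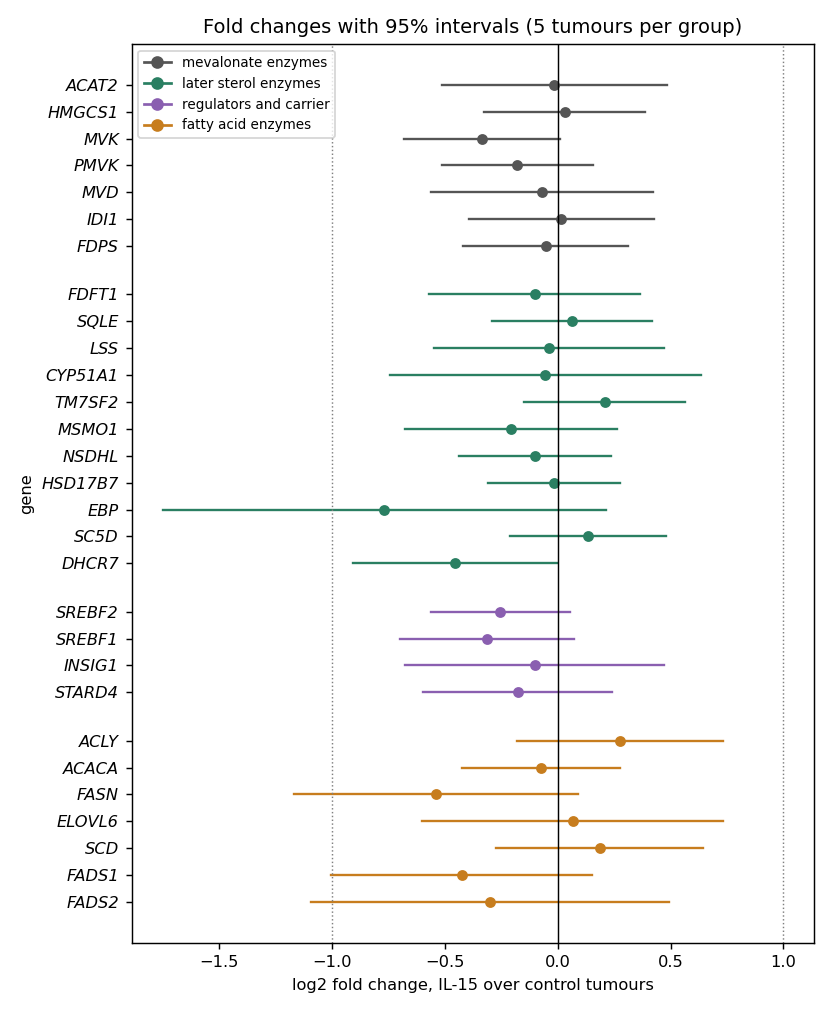
Log2 fold change of IL-15 over control tumours for each gene (point, edgeR) with its 95% interval (line), 5 tumours per group, grouped by role, with dotted lines at a 2-fold change. Intervals cross 0 for every gene but DHCR7, and EBP has the widest, from -1.75 to 0.21.

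The mevalonate enzymes stood close together between the groups, with log2 fold changes from -0.33 to 0.03, and ACAT2, MVD and FDPS turned above 0 when library size alone was used. At that scaling ACAT2, MVD and FDPS stayed below the median of all genes, 0.077. HMGCS1, the synthase that commits acetyl-CoA to the pathway, measured 79.0, 112, 71.7, 68.4 and 83.4 scaled CPM in IL-15 tumours 1 to 5. In control tumours 1 to 5 it measured 89.8, 69.2, 82.2, 100.5 and 64.5 scaled CPM. The ranges lay on top of each other (log2 fold change 0.03 ± 0.17, standard error, 95% interval -0.33 to 0.39). MVK, mevalonate kinase, had the lowest fold change of this group. It measured 66.9, 76.3, 45.2, 60.4 and 73.4 scaled CPM in IL-15 tumours, against 76.96, 69.4, 94.4, 70.5 and 94.9 in control tumours. The group means were 64.5 ± 12.4 and 81.3 ± 12.6 scaled CPM (SD, n = 5 each; log2 fold change -0.33 ± 0.16, edgeR adjusted p = 0.772). MVK overlaps MMAB, a cobalamin pathway gene, on the opposite strand, and strand use in counting was not given in the sources used here. ACAT2, which joins acetyl-CoA units, PMVK, MVD, IDI1 and FDPS had log2 fold changes of -0.01, -0.18, -0.07, 0.02 and -0.05.

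IDI1 and ACAT2 varied more among tumours of a group than between groups. ACAT2 reached 121 scaled CPM in IL-15 tumour 2, while the other IL-15 tumours ranged from 59.96 to 72.0 and control tumours from 54.6 to 101.5. Its locus overlaps TCP1, an abundant chaperonin gene on the opposite strand (6156 counts per library beside 1189 for ACAT2). IDI1 was also highest in IL-15 tumour 2, at 148 scaled CPM, and lowest in control tumour 2, at 76.2.

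Of the 11 later sterol enzymes, 8 had fold changes below 0 and 3 above, and LSS, CYP51A1 and HSD17B7 turned above 0 when library size alone was used. At that scaling LSS, CYP51A1 and HSD17B7 stayed below the median of all genes, 0.077. DHCR7 (ENSG00000172893, chromosome 11, 71428193 to 71452868 on the minus strand, hg38) measured 137.5, 188, 97.4, 207 and 212 scaled CPM in IL-15 tumours 1 to 5. In control tumours it measured 203, 220.0, 305, 188.1 and 239 scaled CPM. IL-15 tumours 1 and 3 lay below every control tumour, and the other 3 lay inside the control range. The means were 168 ± 49.4 and 231 ± 45.5 scaled CPM (SD, n = 5 each). The log2 fold change was -0.46 ± 0.21, with an edgeR adjusted p of 0.767 and an unadjusted p of 0.0484. With 1 library left out the log2 fold change stayed between -0.55 and -0.30. The unadjusted p lay between 0.0572 and 0.137 without IL-15 replicate 1, 2 or 3 or without control replicate 2, 3 or 5, and between 0.0271 and 0.0467 without each of the other 4 libraries.

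EBP had the lowest fold change of the 29 genes, and 1 control tumour decided it. EBP (ENSG00000147155, chromosome X, 48521158 to 48528716 on the plus strand, hg38) measured 121, 145, 71.8, 147 and 98.9 scaled CPM in IL-15 tumours. In control tumours it measured 114, 493, 131, 94.9 and 160.2 scaled CPM. Control tumour 2 stood 3.08 times above the next highest tumour of either group. With it, the log2 fold change was -0.77 ± 0.44 (edgeR adjusted p = 0.779), and without it -0.10. The DESeq2 unadjusted p for EBP, 0.0480, came from the fit that includes this tumour.

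The gene beside EBP was high in the same tumour. PORCN, which encodes an acyltransferase that lipidates Wnt proteins, ends 344 bases before EBP starts and lies on the same strand. It measured 73.5 scaled CPM in control tumour 2, against 18.5 to 30.4 in IL-15 tumours and 23.4 to 28.8 in the other control tumours. TBC1D25, the next tested gene on the other side, measured 47.9 scaled CPM there, against 30.1 to 31.7 in IL-15 tumours and 31.9 to 35.3 in the other control tumours. Beyond these, FTSJ1, RBM3, AC115618.2 and AC115618.3 also had their highest value in control tumour 2, at 1.32, 1.32, 1.73 and 1.95 times the median of the other tumours. SLC38A5, AF196972.1 and AC115618.1, each under 2 scaled CPM, lay at 1.83, 1.70 and 1.28 times without being highest there, and ZNF182 at 0.966 times. The ratio did not fall steadily with distance from EBP. Over all tested genes, 11 had a larger ratio of control tumour 2 to the next highest tumour than EBP, and of the 4912 genes with a mean over 50 scaled CPM, 2 did. These neighbours were named after their values had been seen.

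**Figure D3:**
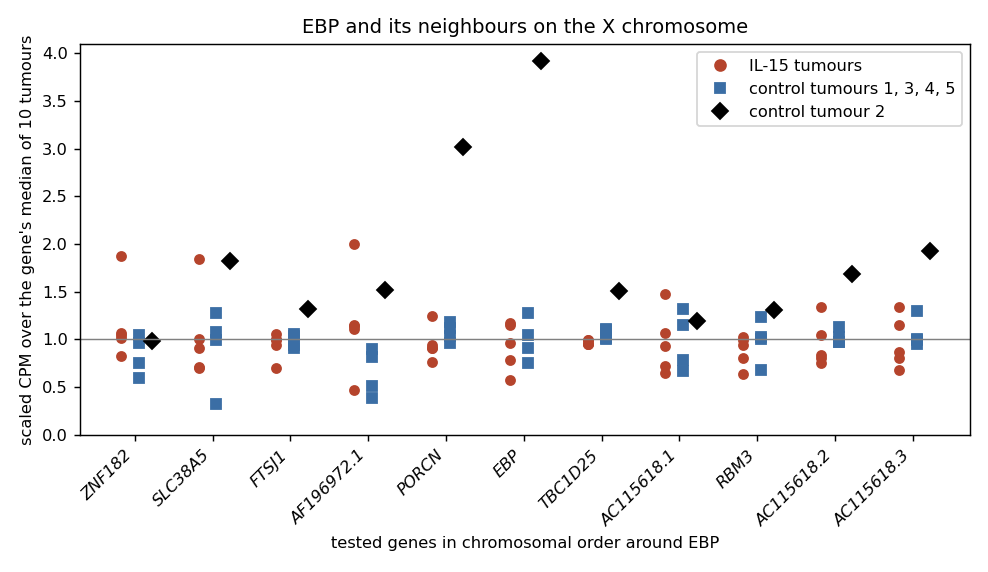
Scaled CPM of EBP and the tested genes on either side of it in chromosomal order, each divided by its median over 10 tumours, with IL-15 tumours as circles, control tumours 1, 3, 4 and 5 as squares and control tumour 2 as a diamond. The diamond stands far above the other tumours for EBP (493 scaled CPM) and PORCN (73.5 scaled CPM), and less far for AC115618.3, AC115618.2 and TBC1D25, at 1.95, 1.73 and 1.51 times the median of the other tumours.

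The remaining later enzymes had log2 fold changes from -0.21 to 0.21, none past the test. SQLE, the epoxidase that is the first step to use oxygen, measured 72.2, 93.8, 52.7, 75.6 and 73.6 scaled CPM in IL-15 tumours and 60.8, 67.4, 70.4, 91.5 and 61.6 in control tumours. Its groups covered the same range (log2 fold change 0.06 ± 0.16). FDFT1 and LSS had log2 fold changes of -0.10 and -0.04, and MSMO1 and NSDHL, which act on the methyl groups of early sterols, of -0.21 and -0.10. MSMO1 had -0.45 without IL-15 replicate 2 (edgeR unadjusted p = 0.0125) and -0.09 without IL-15 replicate 3. HSD17B7 was the steadiest of the 29 genes, with 28.96 ± 4.42 scaled CPM in IL-15 tumours and 29.3 ± 1.95 in control tumours and a 1.45-fold range over all 10. CYP51A1 measured 5.86, 8.93, 3.62, 7.88 and 11.7 scaled CPM in IL-15 tumours and 7.43, 5.30, 11.4, 9.95 and 5.29 in control tumours. The sterol reductase gene TM7SF2 and the desaturase gene SC5D had fold changes above 0 (0.21 ± 0.17 and 0.14 ± 0.16). TM7SF2 overlaps VPS51 on the same strand (2229 counts per library beside 1208 for TM7SF2). It went against most of the set in tumour rank, with its lowest value in IL-15 tumour 2 (58.6 scaled CPM) and its highest in IL-15 tumour 4 (103.7).

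SREBF2, SREBF1, INSIG1 and STARD4, the 4 regulators and carriers, each had a fold change below 0 (median -0.22 on the log2 scale), and 0 passed the test. Without IL-15 replicate 3 INSIG1 turned to 0.07. SREBF2 (chromosome 22, 41833079 to 41907308, hg38) measured 207, 224, 158, 265 and 231 scaled CPM in IL-15 tumours and 292, 247, 261, 238 and 255 in control tumours. IL-15 tumours 1, 2, 3 and 5 lay below all control tumours, and IL-15 tumour 4 lay above all but control tumour 1. The log2 fold change was -0.25 ± 0.14 (95% interval -0.56 to 0.05, edgeR adjusted p = 0.776). SREBF1 (chromosome 17, 17810399 to 17837002, hg38) measured 579, 436, 439.5, 597 and 601 scaled CPM in IL-15 tumours and 653, 619.7, 795.5, 436 and 792 in control tumours. Every control tumour but the fourth lay above every IL-15 tumour, with a log2 fold change of -0.31 ± 0.18 (edgeR adjusted p = 0.776). RAI1, on the opposite strand, overlaps SREBF1. INSIG1 measured 121, 257, 95.1, 179 and 220.5 scaled CPM in IL-15 tumours and 153, 164, 267, 143 and 210.0 in control tumours, with a log2 fold change of -0.10 ± 0.26. STARD4 averaged 12.1 ± 2.89 and 13.6 ± 1.79 scaled CPM in IL-15 and control tumours (SD, n = 5 each).

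Fatty acid enzymes went in both directions. FASN (ENSG00000169710, chromosome 17, 82078333 to 82098332 on the minus strand, hg38) measured 1874, 2956, 1046, 2815 and 1883 scaled CPM in IL-15 tumours 1 to 5. In control tumours 1 to 5 it measured 2071, 2516, 3215, 2631 and 4930 scaled CPM. IL-15 tumours 1, 3 and 5 were below all control tumours, and IL-15 tumours 2 and 4 were inside the control range. The means were 2115 ± 783 and 3073 ± 1116 scaled CPM (SD, n = 5 each), a log2 fold change of -0.54 ± 0.29 (95% interval -1.17 to 0.09, edgeR adjusted p = 0.774). With 1 library left out it ranged from -0.68 without IL-15 replicate 2 to -0.29 without control replicate 5, and was -0.36 without IL-15 replicate 3. The unadjusted edgeR p was 0.0437 without IL-15 replicate 2 and 0.0461 without control replicate 1. It was above 0.05 with any other library left out. Over all genes, 1575 of 17287 lay under 0.05 without IL-15 replicate 2 and 1481 of 17171 without control replicate 1. With all libraries 1092 of 16913 did.

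FADS2 and FADS1, the desaturases that act in turn on polyunsaturated fatty acids, overlap on opposite strands of chromosome 11 (61792980 to 61867354 and 61799625 to 61829318, hg38), FADS1 lying inside FADS2, so the split of their reads is uncertain. FADS2 measured 965, 1169, 537.5, 1255 and 717 scaled CPM in IL-15 tumours and 1006, 592, 1426, 587 and 2101 in control tumours. FADS1 measured 71.97, 94.5, 58.3, 125 and 77.04 scaled CPM in IL-15 tumours and 133, 87.2, 137, 59.0 and 158 in control tumours. Both were highest in control tumour 5 and lowest in IL-15 tumour 3. The log2 fold change was -0.30 ± 0.36 for FADS2 and -0.42 ± 0.27 for FADS1. Without control replicate 5 that of FADS2 was 0.05. With DHCR7 they made up 3 of the 5 genes of the set on chromosome 11, the others being TM7SF2 and SC5D, with fold changes above 0.

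ACLY, SCD and ELOVL6 had fold changes above 0. ACLY measured 389, 444, 370.4, 556 and 684 scaled CPM in IL-15 tumours and 379, 407, 548, 423 and 259.8 in control tumours (log2 fold change 0.28 ± 0.21). SCD measured 654.5, 1057, 644, 821 and 1064 scaled CPM in IL-15 tumours and 698, 532.5, 1111, 724 and 661 in control tumours (log2 fold change 0.19 ± 0.21). For both genes the groups overlapped over most of their range. ACACA averaged 267 ± 54.6 and 281 ± 31.8 scaled CPM in IL-15 and control tumours. ELOVL6, which extends palmitate, averaged 44.5 ± 23.2 and 42.5 ± 12.5, and its direction turned with the test used (log2 fold change 0.07 in edgeR, -0.01 in limma voom).

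Differences among single tumours were larger than those between the groups. IL-15 tumour 3 had the lowest level of 19 of the 29 genes, 14 sterol genes and 5 fatty acid enzymes, while 16.2% of all tested genes were lowest there. Its median deviation from each gene's mean over 10 tumours was -0.52 on the log2 scale for sterol genes and -0.66 for fatty acid enzymes, against 0.03 for all genes. FASN deviated by -1.21, CYP51A1 by -1.01, DHCR7 by -0.98, EBP by -0.91 and INSIG1 by -0.86 on that scale. TM7SF2, at 0.25, was alone above its mean in this tumour. The library had 14624666 counts, the largest TMM factor of the 10 (1.10) and the largest ratio of FPKM total to count total (1.24), with 32.9 scaled CPM of T and NK cell markers and 10230 of prostate markers. The part of these in the low values was not tested.

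The high tumours did not share 1 pattern. IL-15 tumour 2 held the highest level of 9 genes (10.6% of all genes were highest there), 8 of them sterol genes, among them HMGCS1, IDI1, SQLE, FDFT1 and MSMO1. Control tumour 3 held the highest level of 6 genes (9.63% of all genes were highest there), including SCD, INSIG1, LSS and DHCR7. All 7 fatty acid enzymes were above their mean in it, as they were in IL-15 tumour 2. Control tumour 5 held the highest level of 8 genes (16.9% of all genes were highest there), among them FASN, FADS1, FADS2, MVK, MVD and FDPS. In the same tumour ACLY and HMGCS1 were at their lowest of the 10, at 259.8 and 64.5 scaled CPM, while 15.5% of all genes were lowest there. FASN made up 58.8% of the summed fatty acid enzyme CPM in that tumour and 36.6% in IL-15 tumour 3. CPM are not divided by gene length, so these shares do not compare levels between genes per length.

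**Figure D4:**
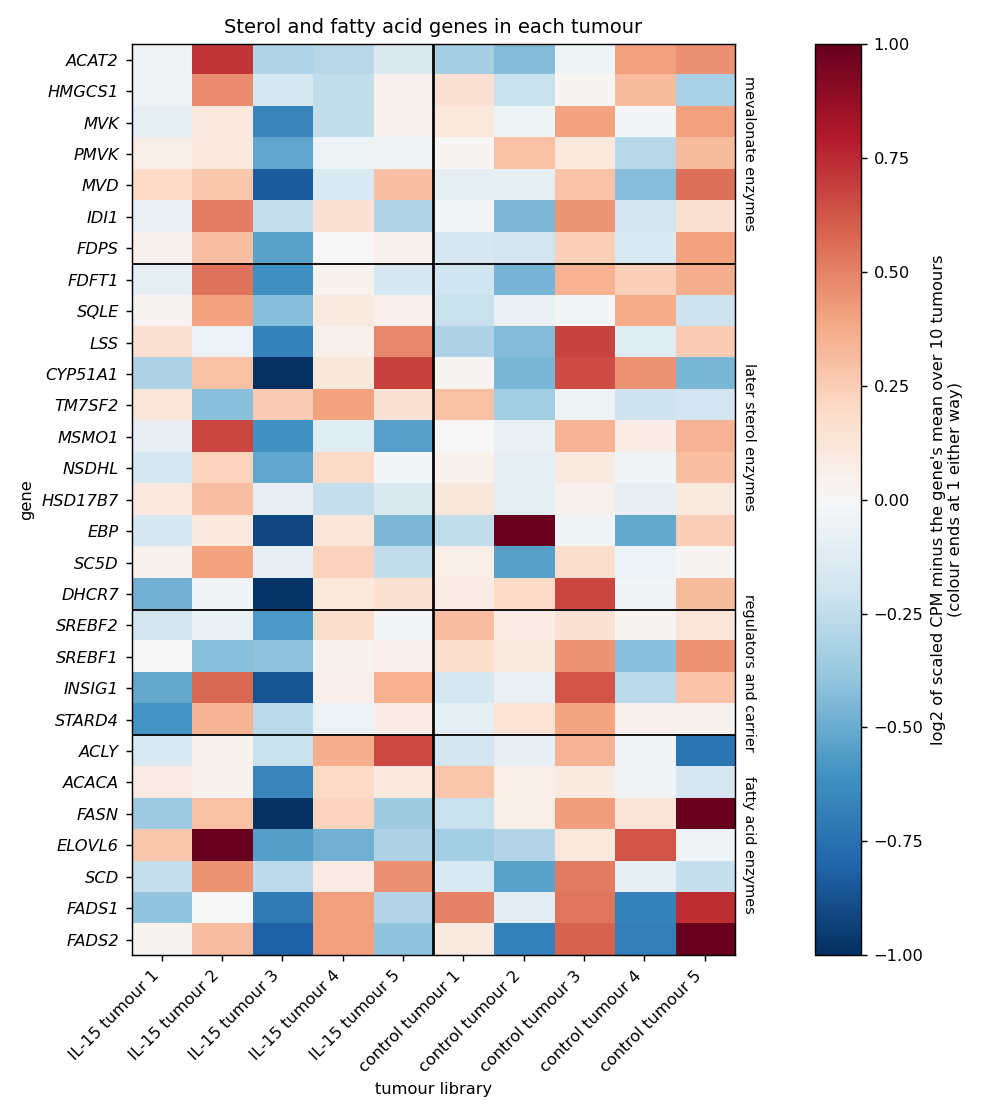
Deviation of each gene (rows, by role) from its mean over 10 tumours in each tumour (columns, IL-15 tumours left of control tumours), on the log2 scale of scaled CPM. The column of IL-15 tumour 3 is blue in every row but TM7SF2, and control tumour 5 combines high FASN and FADS2 with low ACLY and HMGCS1.

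Summed over the set, the branches overlapped between the groups. The 22 sterol genes summed to 2644 ± 441 scaled CPM in IL-15 tumours, from 1919 to 3076, and to 3022 ± 393 in control tumours, from 2586 to 3518 (SD, n = 5 each). Without the 4 regulators and carriers the sterol sum ran from 1216 to 2143 in IL-15 tumours and from 1650 to 2178 in control tumours. The 7 fatty acid enzymes summed to 4777 ± 1315 scaled CPM in IL-15 tumours, from 2856 to 6080, and to 5802 ± 1724 in control tumours, from 4452 to 8390. The lowest sum of either branch was that of IL-15 tumour 3. Spread within groups was in the usual range of these tumours, with a median biological coefficient of variation of 0.22 for sterol genes and 0.30 for fatty acid enzymes, against 0.26 for all tested genes. EBP (0.48), FADS2 (0.40) and CYP51A1 (0.38) varied most, and HSD17B7 (0.18) and SREBF2 (0.18) least.

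Across the 10 tumours, 6 pairs of genes were compared on log2 CPM, and none passed after adjustment. HMGCS1 and SQLE had Pearson r = 0.691 (permutation p = 0.0263, adjusted over 6 pairs 0.158) and Spearman rho = 0.467 (permutation p = 0.179, adjusted 0.606). Without IL-15 tumour 2 and control tumour 5, farthest from the median of HMGCS1, r was 0.47 (permutation p = 0.243). Without either of them alone it was 0.524 and 0.659. SREBF1 and FASN had r = 0.533 (permutation p = 0.110, adjusted 0.329) and rho = 0.345 (permutation p = 0.331, adjusted 0.662). SREBF1 was about equally low in IL-15 tumours 2 and 3 and control tumour 4 (8.77, 8.78 and 8.77 on the log2 CPM scale), so r moved with which of them was left out. It was 0.909 without IL-15 tumour 2 and control tumour 4, farthest from the median of SREBF1 by a small margin (permutation p = 0.00307, not adjusted), and 0.35 without IL-15 tumour 3. With library size alone r was 0.342.

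The other 4 pairs had smaller coefficients. FASN and SCD had r = 0.187 (permutation p = 0.610, adjusted 0.915) and rho = 0.442 (permutation p = 0.202, adjusted 0.606), and INSIG1 and HMGCS1 had r = 0.243 (permutation p = 0.496, adjusted 0.915) and rho = 0.127 (permutation p = 0.736, adjusted 0.785). SREBF2 and HMGCS1 had r = 0.0581 (permutation p = 0.875, adjusted 0.932) and rho = -0.176 (permutation p = 0.631, adjusted 0.785). HMGCS1 and FASN, an enzyme of each branch, had r = -0.0318 (permutation p = 0.932, adjusted 0.932) and rho = -0.103 (permutation p = 0.785, adjusted 0.785). Without the 2 tumours farthest on the first-named gene, r was 0.33 for FASN and SCD (permutation p = 0.409), 0.141 for INSIG1 and HMGCS1 (permutation p = 0.735), -0.483 for SREBF2 and HMGCS1 (permutation p = 0.223) and 0.19 for HMGCS1 and FASN (permutation p = 0.661). A p that misses the threshold does not show that the genes vary independently. The labels name no batch.

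**Figure D5:**
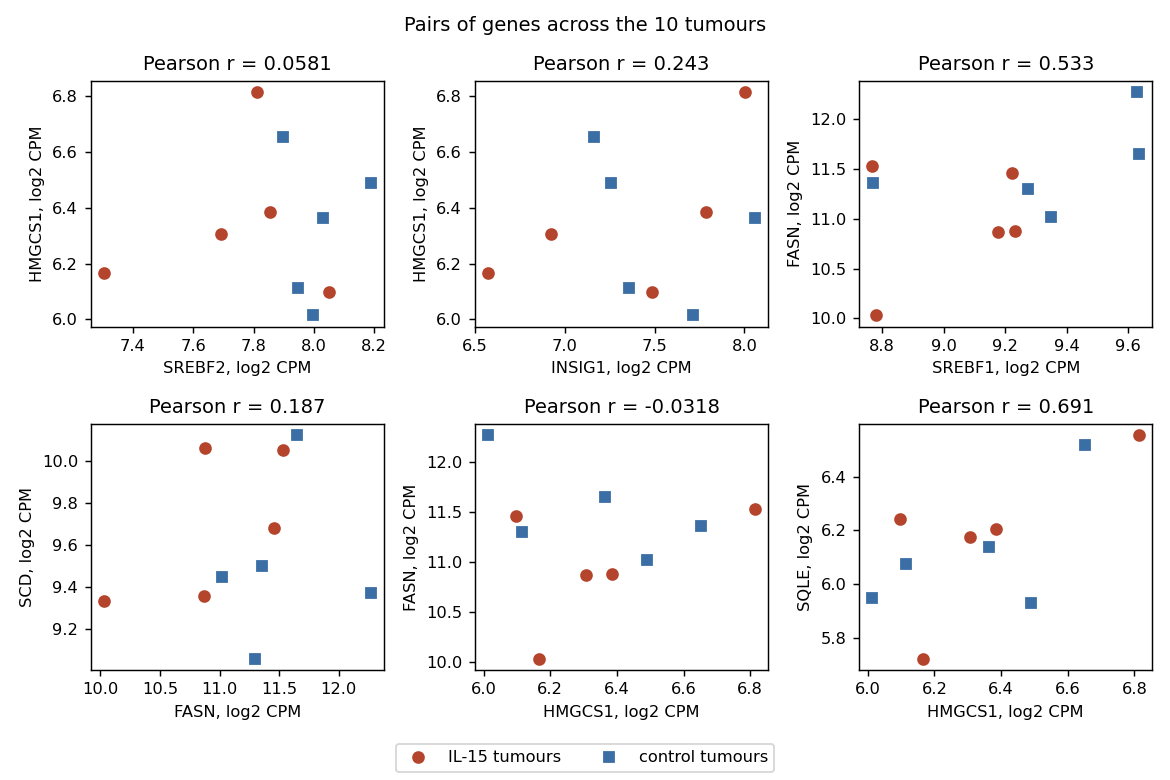
Log2 CPM of the 6 gene pairs across 10 tumours, IL-15 tumours as circles and control tumours as squares, with Pearson r above each panel. HMGCS1 and SQLE show the highest coefficient (0.691), and HMGCS1 and FASN show none to speak of (-0.0318).

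Further genes of lipid metabolism were read from 5 lists of 52 genes, of which 46 were tested. In edgeR, 0 passed an adjusted p of 0.05, and in DESeq2 0 did. At an unadjusted edgeR p under 0.05, 1 was higher (background 3.03%) and 4 were lower (background 3.43%) in IL-15 tumours, with a median log2 fold change of -0.09 over the 46. Among 6 other sterol genes tested, 3 were above and 3 below 0. ERG28, a scaffold of the sterol demethylation complex, had 0.20 ± 0.15 and ACAT1, a mitochondrial thiolase, -0.28 ± 0.18 on the log2 scale.

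Of 7 genes that control SREBP, 6 had fold changes below 0. INSIG2, the partner of INSIG1, measured 74.7, 98.5, 101.3, 69.5 and 74.7 scaled CPM in IL-15 tumours. In control tumours it measured 32.5, 29.4, 92.3, 93.9 and 32.3 scaled CPM, so control tumours 3 and 4 lay within the IL-15 range and control tumours 1, 2 and 5 lay below all IL-15 tumours. Its log2 fold change was 0.58 ± 0.35 (edgeR adjusted p = 0.785).

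Among 20 other fatty acid enzymes tested, 9 had fold changes above 0 and 11 below. ELOVL1, an elongase of very long chains, averaged 135 ± 21.9 scaled CPM in IL-15 tumours and 181 ± 30.2 in control tumours (log2 fold change -0.42 ± 0.15, edgeR adjusted p = 0.758, unadjusted 0.0156). ACSL3, an androgen-regulated acyl-CoA synthetase, averaged 267 ± 99.6 and 179.8 ± 60.4 scaled CPM (log2 fold change 0.57 ± 0.27, edgeR adjusted p = 0.772, unadjusted 0.0599). Of 6 glycerolipid and sterol ester enzymes tested, 2 were above and 4 below 0, with AGPAT2 at -0.31 ± 0.17 and DGAT2, which makes triglyceride, at -0.23 ± 0.17 on the log2 scale.

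The 7 genes of the LXR oxysterol receptors and their targets had 3 fold changes above and 4 below 0. NR1H3, which encodes LXR alpha, ranged from 10.9 to 14.9 scaled CPM in IL-15 tumours and measured 18.6, 24.2, 21.1, 9.42 and 27.5 in control tumours. Every control tumour but the fourth exceeded all IL-15 tumours, with a log2 fold change of -0.68 ± 0.24 (edgeR adjusted p = 0.758, unadjusted 0.0143). MYLIP, an LXR target that degrades lipoprotein receptors, measured 13.99, 10.4, 22.3, 13.0 and 10.1 scaled CPM in IL-15 tumours and 11.2, 8.48, 5.47, 9.31 and 7.51 in control tumours (log2 fold change 0.74 ± 0.26, edgeR adjusted p = 0.758, unadjusted 0.0126). NR1H2, which encodes LXR beta and was named after its values were seen, averaged 85.8 ± 8.76 and 113 ± 27.8 scaled CPM in IL-15 and control tumours (log2 fold change -0.40 ± 0.16, edgeR adjusted p = 0.758, unadjusted 0.0283). The highest MYLIP value was in IL-15 tumour 3, where most synthesis genes were lowest.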

How the data were processed

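Gene expression was measured by RNA sequencing of 10 LNCaP xenograft tumours. The deposited counts are raw whole-number reads per human gene, per the file headers. The deposited FPKM values equal the count over gene length and a total per library, 1.01 to 1.24 times its count total, whose making was not given in the sources used here. Build hg38 and, as tools without roles, GATK 4.1.1.0, DESeq2 1.20.0, featureCounts 1.5.0-p3, HISAT2 2.0.5 and fastp come from the submitters' processing notes. Strandedness and handling of mouse reads were not given in the sources used here. Sample labels say mouse, but the table lists human genes. The authors' group mean FPKM equalled the mean of 5 libraries for IL-15 but differed for control in 38548 genes and was not used, so the control libraries may be part of a larger group.

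Genes passing filterByExpr (minimum count 10; 16913 genes) were scaled by TMM and tested in edgeR 4.0.16 (quasi-likelihood, robust, R 4.3.3) with Benjamini-Hochberg adjustment at 0.05. Scaled CPM are counts per 1e+06 counts after TMM, and errors on log2 fold changes are standard errors. Intervals are 95% t intervals of this fit. Correlations used log2 CPM (prior count 2) and 100000 two-sided permutations. Alternatives were other scalings and filters, DESeq2 1.42.0, limma 3.58.1, FPKM, the replicate block and each library left out. All 45 pairs of libraries differed beyond sampling noise, by chi-square 20.6 to 92.7 times the degrees of freedom. The script was tested on simulated data. The genes and lists were chosen with earlier results of these data known. All 29 genes are named, with the 2 genes of smallest p from each of the 5 further lists, except an item that is not reported here.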

Additional observations from a re-analysis of the deposited data

Results flagged for a closer look

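Within groups of 5 tumours, 4 of 66 sets of values had 1 tumour set apart from the others by more than the critical share of the range (0.71 at 5 values), and chance gives about 1 such set in 20. EBP in control tumour 2 was the clearest, at 493 scaled CPM with the other control tumours from 94.9 to 160.2. ACAT2 stood at 121 scaled CPM in IL-15 tumour 2, with the other IL-15 tumours from 59.96 to 72.0. ACACA stood at 171 scaled CPM in IL-15 tumour 3, with the other IL-15 tumours from 277 to 310. The median deviation of the fatty acid enzymes was 0.41 on the log2 scale in control tumour 3, with the other control tumours from -0.15 to -0.03.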

How the results depend on the processing

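The count of genes called over all tested genes was 0 in edgeR and became 1 with no filter, 7 with DESeq2 and 2 with log2(FPKM + 0.1) in limma. None of these calls was among the 29 genes, of which 0 passed an adjusted p of 0.05 in any of 20 alternatives. At an unadjusted p of 0.05 the count among the 29 was 1, against 0 with DESeq2 size factors, upper quartile scaling, library size alone, a minimum mean of 1 CPM or the replicate block, 2 with DESeq2, and 0 to 4 with each library left out. The genes under that p with 1 library or another left out were DHCR7, MVK, FASN, FADS1, MSMO1, SREBF1, SREBF2 and, above 0, TM7SF2. Over all genes, 1092 of 16913 were under it in the main fit and 1246 of 16913 in DESeq2. With a library left out, the number ran from 616 of 17202 (IL-15 replicate 3) to 1575 of 17287 (IL-15 replicate 2). The count without overlap was 0 with all libraries, beside 0.313% lower and 0.349% higher over all genes. With a library left out it was 0 to 1, and the share over all genes was not computed there. The medians ranged from -0.19 to 0.04 for sterol genes and from -0.28 to 0.06 for fatty acid enzymes.

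Replicate numbers did not pair the tumours. Same-numbered tumours had correlations of their deviations from -0.22 to 0.26, and 1 of 5 IL-15 tumours correlated best with its own number. The replicate block took the count at an unadjusted p of 0.05 to 0 among the 29 genes, and 0 genes were called over all. FASN was 11.9 times the median gene by deposited FPKM and 11.6 times by FPKM computed from the counts, with 2 genes at another rank.

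Of 580 recomputed fold changes, 526 kept their direction and 54, in 15 genes, did not, while 14 genes kept it in all settings. The log2 fold change turned to 0.0215, 0.0646 and 0.00136 for ACAT2 (upper quartile, library size alone, minimum mean of 1 CPM), to 0.011 and 0.0497 for LSS and 0.0228 and 0.0633 for HSD17B7 (upper quartile, library size alone), and with library size alone to 0.0119 for MVD, 0.0285 for FDPS and 0.0108 for CYP51A1. The median over all genes was 0.0377 (upper quartile), 0.0769 (library size alone) and 0.00633 (minimum mean of 1 CPM), above each turned value at that setting. For ELOVL6 the log2 fold change turned to -0.0142 with limma voom, -0.0359 and -0.0217 with log2(FPKM + 0.1) and log2(FPKM + 1), and -0.0279 with the replicate block. With each library left out in turn, the log2 fold change ranged from -0.13 to 0.0574 for ACACA, -0.24 to 0.11 for ACAT2, -0.26 to 0.13 for CYP51A1, -0.28 to 0.25 for ELOVL6, -0.47 to 0.0499 for FADS2, -0.27 to 0.0263 for FDFT1, -0.13 to 0.0626 for FDPS, -0.10 to 0.12 for HMGCS1, -0.0937 to 0.0355 for HSD17B7, -0.12 to 0.14 for IDI1, -0.27 to 0.0656 for INSIG1, -0.18 to 0.16 for LSS, -0.18 to 0.0914 for MVD, -0.16 to 0.007 for NSDHL and -0.03 to 0.18 for SQLE.

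Pearson r turned to -0.0296 (upper quartile) and -0.0373 (library size alone) for SREBF2 and HMGCS1, and to -0.0384 (library size alone) for FASN and SCD. With each library left out, r ranged from -0.251 to 0.158 for SREBF2 and HMGCS1, -0.0444 to 0.385 for INSIG1 and HMGCS1, -0.297 to 0.341 for HMGCS1 and FASN, 0.00697 to 0.417 for FASN and SCD, 0.343 to 0.694 for SREBF1 and FASN and 0.524 to 0.809 for HMGCS1 and SQLE, and with values centred on their group means from -0.00481 to 0.69 over the 6 pairs. The cause of these turns was not tested.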
